A study of Sus scrofa with 8 samples.

Results

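The 9 genes described here, of 30550 in the deposited table, encode proteins of the adherens, gap and tight junctions of the intercalated disc: CDH2, CTNNA1, CTNNA3, CTNNB1, VCL, GJA1, GJC1, TJP1 and CXADR. They were chosen by gene name for the junction their proteins belong to. RNA was sequenced from right ventricular tissue of pigs (Sus scrofa), with 4 libraries of the PKP2 heterozygous knockout (PKP2_het, written PKP+/- in the labels' protocol) and 4 wild-type (WT) libraries. PKP2 encodes plakophilin 2, a desmosomal protein, and the series presents the knockout as a pig model of arrhythmogenic cardiomyopathy. The age, sex, breed and litter of the pigs, the way the knockout was made and whether each library came from its own animal are not given in the labels, so the p-values below rest on variation among libraries, which may be partly technical.

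The intercalated disc is the seam where heart muscle cells meet end to end. Adherens junctions anchor the thin filaments of neighbouring cells through N-cadherin and the catenins, desmosomes anchor the intermediate filaments, and gap junctions let current pass between cells. Plakophilin 2 sits in the desmosomal plaque, and in rodent heart muscle cells its loss is known to disturb connexin 43 and sodium channels at the same disc.

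The deposited levels are FPKM, in which fragments are scaled for gene length and library, and rest on 23637697 to 31313628 fragments assigned to genes per library. In such bulk tissue, fewer cells of a type and less RNA per cell cannot be told apart. The labels name cardiomyocytes, and 10 cardiomyocyte markers (TNNT2, MYH7, MYL2 and others) summed to between 25585 and 34744 FPKM in PKP2_het and between 26759 and 29955 FPKM in WT. Markers of other cells were present as well: 9 endothelial markers summed to 221 to 455 FPKM in PKP2_het and 262 to 510 FPKM in WT, and 8 fibroblast markers to 239 to 516 FPKM in PKP2_het and 273 to 355 FPKM in WT. PKP2 itself was at 45.4, 40.7, 24.6 and 45.9 FPKM in PKP2_het replicates 1 to 4 and at 52.9, 62.2, 61.1 and 72.8 FPKM in WT replicates 1 to 4, so the targeted gene was lower in every library labelled PKP2_het (two-sided exact permutation p = 0.0286, the smallest that 70 relabellings can give; limma adjusted p = 0.164 over all genes). Its log2 fold change was -0.69, or -0.48 without PKP2_het replicate 3 (limma adjusted p = 0.0732). PKP2_het replicate 3 stood apart on the first principal component (score 47.8, with all remaining libraries between -16.5 and 3.74). Its mitochondrially encoded transcripts took 52.1% of fragments, against 21.1% to 33.4% in the other PKP2_het libraries and 22.03% to 37.6% in WT. The members' fold changes and ratios are given with and without it.

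No member passed the genome-wide test, in either direction. Of the 9 genes, 8 were among the 10757 that reached 1 FPKM in 4 or more libraries and were tested; GJC1 reached it in 2 of 8 libraries. Limma with a Benjamini-Hochberg adjusted p threshold of 0.05 called 0 of the 8 higher, where 1.15% of all tested genes were called higher, and 0 lower, where 0.707% were called lower. TJP1 alone had an unadjusted p under 0.05, as did 12.8% of all tested genes. The log2 fold change was negative for 6 of the 8 and the median was -0.21, against 54.3% negative and a median of -0.022 over all tested genes. Without PKP2_het replicate 3 it was negative for 3 of the 8 with a median of 0.014, against 48.5% and 0.0067 over all genes. Still 0 were called, where 1.81% of all tested genes were called higher and 1.11% lower.

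**Figure D1:**
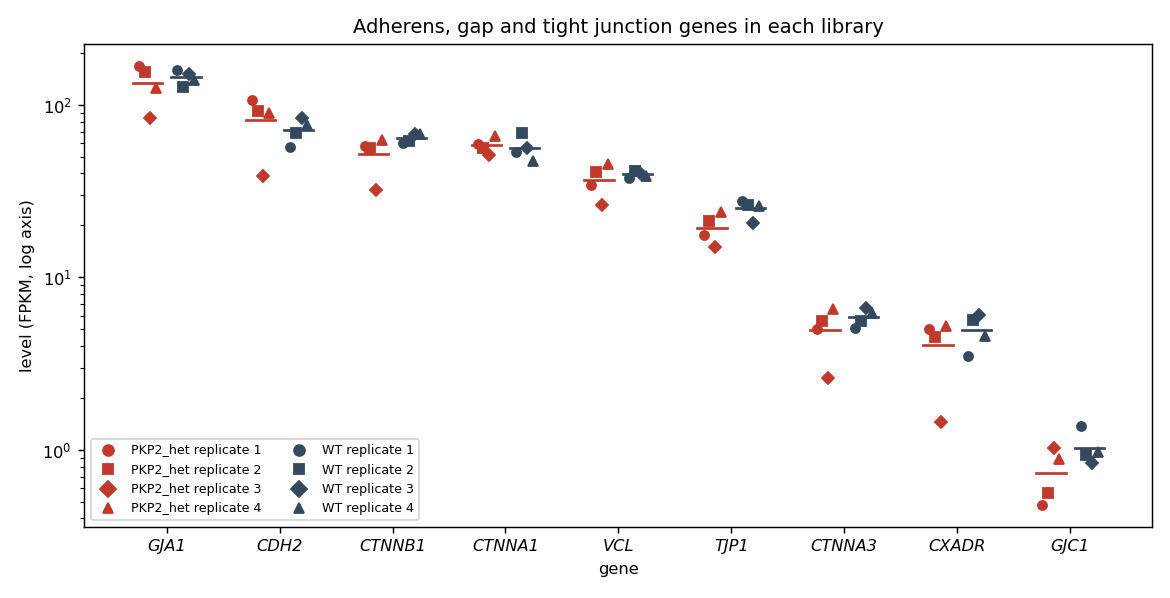
Level of each junction gene (FPKM, logarithmic axis) in the 4 PKP2_het (red) and 4 WT (dark blue) libraries; symbols give the replicate number and bars the group mean. The groups overlap for all 9 genes. Over all tested genes the groups did not overlap for 4.86% (PKP2_het higher) and 4.33% (PKP2_het lower). The red diamond, PKP2_het replicate 3, is the lowest of the PKP2_het libraries for every gene but GJC1.

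The levels covered a wide range, with connexin 43 at the top and connexin 45 at the bottom. FPKM is scaled by gene length, so levels of different genes can be set side by side, though only roughly. The scaling uses 1 listed length per gene, from 3080 bases for GJA1 to 17282 for CTNNA3. Whether the transcripts present have those lengths was not examined. In PKP2_het the order by mean level was GJA1, CDH2, CTNNA1, CTNNB1, VCL, TJP1, CTNNA3, CXADR and GJC1, and in WT it was the same except that CTNNB1 stood above CTNNA1. Among PKP2_het libraries the ranges of neighbours overlapped from GJA1 down to VCL and between CTNNA3 and CXADR, and were apart between VCL and TJP1, TJP1 and CTNNA3, and CXADR and GJC1. In WT they overlapped between CDH2 and CTNNB1, CTNNB1 and CTNNA1, and CTNNA3 and CXADR, and GJA1 was apart from CDH2. GJA1 had 6173 to 15013 fragments per library, whereas GJC1 had 139 to 306 and CXADR 154 to 867. The lowest count had an exact 95% Poisson interval of 117 to 164 for GJC1 and 131 to 180 for CXADR, which covers counting error only.

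CDH2 encodes N-cadherin, the calcium-dependent adhesion protein that joins neighbouring heart muscle cells at the adherens junction. It was at 107.3, 92.4, 38.8 and 89.2 FPKM in PKP2_het replicates 1 to 4, and at 57.2, 68.2, 84.1 and 75.9 FPKM in WT replicates 1 to 4. PKP2_het replicates 1, 2 and 4 were above every WT library and PKP2_het replicate 3 was below all of them, so the groups overlapped. The means were 81.9 ± 29.8 FPKM in PKP2_het against 71.4 ± 11.4 FPKM in WT (SD, n = 4 each), with a log2 fold change of 0.12 (95% interval -0.54 to 0.77; limma adjusted p = 0.886). Without PKP2_het replicate 3 the PKP2_het mean was 96.3 ± 9.62 FPKM (SD, n = 3), 1.35-fold the WT mean, and the log2 fold change was 0.44 ± 0.14 (SE; limma adjusted p = 0.161). The 2 groups then did not overlap, as held for 8.79% of all tested genes in that direction and 6.91% in the other, and the exact permutation p was 0.0571. The CDH2 gene (100515322) lies on chromosome 6 of Sscrofa11.1, 112396713 to 112629073, minus strand.

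A long noncoding RNA gene on the opposite strand, LOC110261188, overlaps the CDH2 locus; it was looked at because of that position, after the CDH2 values had been seen. Its level was 1.57 ± 0.333 FPKM in PKP2_het against 0.802 ± 0.178 FPKM in WT (SD, n = 4 each). Every PKP2_het library, at 1.51, 1.41, 2.06 and 1.31 FPKM, was above every WT library, at 1.05, 0.714, 0.813 and 0.635 FPKM. Groups that do not overlap, higher in PKP2_het, were found for 4.86% of tested genes. On the log2 scale the difference was 0.51 ± 0.11 (SE), and its limma adjusted p of 0.0630 missed the threshold, as it did without PKP2_het replicate 3 (log2 fold change 0.42, limma adjusted p = 0.0630). PKP2_het replicate 3, the lowest library for CDH2, was the highest for this RNA. Whether strand was used in counting is not given in the sources used here, and without it fragments from overlapping exons on the 2 strands cannot be told apart.

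CTNNB1 encodes beta-catenin, which links the cadherin tail to alpha-catenin and also carries Wnt signals to the nucleus. It was at 58.0, 56.1, 32.3 and 62.3 FPKM in PKP2_het replicates 1 to 4, and at 60.4, 61.6, 67.6 and 67.4 FPKM in WT replicates 1 to 4. PKP2_het replicates 1, 2 and 3 were below every WT library and PKP2_het replicate 4 lay within the WT range. The means were 52.1 ± 13.5 FPKM in PKP2_het against 64.3 ± 3.79 FPKM in WT (SD, n = 4 each), with a log2 fold change of -0.34 (95% interval -0.78 to 0.10; limma adjusted p = 0.526). Without PKP2_het replicate 3 it was -0.13 ± 0.090 (SE; limma adjusted p = 0.531).

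CTNNA1 and CTNNA3 encode alpha-E- and alpha-T-catenin, which tie beta-catenin and plakoglobin to actin; alpha-T-catenin is the form found mainly in heart and testis and is known to bind plakophilin 2. CTNNA1 had the smallest log2 fold change of the tested members, at 51.0 to 66.1 FPKM in PKP2_het and 47.5 to 68.6 FPKM in WT, with means of 58.2 ± 6.32 and 56.5 ± 8.89 FPKM in PKP2_het and WT (SD, n = 4 each). The log2 fold change was 0.049 (95% interval -0.27 to 0.36; limma adjusted p = 0.905), and 0.11 without PKP2_het replicate 3 (limma adjusted p = 0.732). CTNNA1 was also the member least changed in PKP2_het replicate 3 relative to the other PKP2_het libraries, at 84.2% of their mean. CTNNA3 was at 5.04, 5.55, 2.60 and 6.56 FPKM in PKP2_het replicates 1 to 4 and at 5.05, 5.56, 6.62 and 6.19 FPKM in WT replicates 1 to 4. PKP2_het replicate 3 was the lowest, and the other 3 PKP2_het libraries spanned nearly the WT range. The CTNNA3 log2 fold change was -0.25 (95% interval -0.72 to 0.22; limma adjusted p = 0.656), and -0.030 without PKP2_het replicate 3 (limma adjusted p = 0.923).

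VCL encodes vinculin, an actin-binding protein recruited to adherens junctions under tension. It was at 26.4 to 45.5 FPKM in PKP2_het and at 37.4 to 41.5 FPKM in WT, the narrowest WT spread of the 9 genes at 4.61% of the mean (coefficient of variation, n = 4), against 22.5% in PKP2_het. The WT range lay inside the PKP2_het range. Its log2 fold change was -0.13 (95% interval -0.49 to 0.23; limma adjusted p = 0.762), and 0.017 without PKP2_het replicate 3 (limma adjusted p = 0.954).

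GJA1 encodes connexin 43, the main gap junction channel protein of working ventricular muscle. It was at 168, 155, 83.9 and 125 FPKM in PKP2_het replicates 1 to 4, and at 160, 127, 151 and 139 FPKM in WT replicates 1 to 4. PKP2_het replicate 1 was the highest library of all, PKP2_het replicate 3 the lowest, and the groups overlapped. The means were 133 ± 37.4 FPKM in PKP2_het against 144 ± 14.5 FPKM in WT (SD, n = 4 each), with a log2 fold change of -0.16 (95% interval -0.63 to 0.31; limma adjusted p = 0.771). Without PKP2_het replicate 3 it was 0.044 (95% interval -0.26 to 0.35; limma adjusted p = 0.902). The interval with all 8 libraries leaves room for a decrease of 0.63 or an increase of 0.31 on the log2 scale. The GJA1 gene (100518636) lies on chromosome 1 of Sscrofa11.1, 40988818 to 41002129, minus strand, and no other gene of the table overlaps it.

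GJC1 encodes connexin 45, which is known from the conduction system and the early embryonic heart and is sparse in adult working muscle. It was at 0.480, 0.562, 1.02 and 0.885 FPKM in PKP2_het replicates 1 to 4, and at 1.37, 0.939, 0.834 and 0.966 FPKM in WT replicates 1 to 4. PKP2_het replicates 1 and 2 were below every WT library, whereas PKP2_het replicates 3 and 4 lay within the WT range. The means were 0.737 ± 0.257 FPKM in PKP2_het against 1.03 ± 0.234 FPKM in WT (SD, n = 4 each), with a two-sided exact permutation p of 0.200, or 0.114 without PKP2_het replicate 3. When low genes were kept in the test, the log2 fold change was -0.23 with a limma adjusted p of 0.560. GJC1 was the 1 member that PKP2_het replicate 3 held at a higher level than the other PKP2_het libraries, at 159% of their mean.

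TJP1 encodes ZO-1, a scaffold that binds connexin 43 and alpha-catenin and limits the size of gap junction plaques. It was at 17.5, 21.1, 14.9 and 23.8 FPKM in PKP2_het replicates 1 to 4, and at 27.6, 26.3, 20.6 and 25.9 FPKM in WT replicates 1 to 4. WT replicates 1, 2 and 4 were above every PKP2_het library, and WT replicate 3 lay within the PKP2_het range. The means were 19.3 ± 3.92 FPKM in PKP2_het against 25.1 ± 3.07 FPKM in WT (SD, n = 4 each), which put PKP2_het at 77.0% of WT. The log2 fold change was -0.37 (95% interval -0.73 to -0.018), with a limma unadjusted p of 0.0414 and adjusted p of 0.360 over all genes. By the two-sided exact permutation test p was 0.0857. The TJP1 fold change on the log2 scale was -0.26 ± 0.13 without PKP2_het replicate 3 (SE; limma adjusted p = 0.375). TJP1 is also made by endothelial cells. Log2 fold changes were negative for 8 of the 9 endothelial markers (median -0.24), where 54.3% of all tested genes were negative. Without PKP2_het replicate 3 they were negative for 9 of 9 (median -0.40), where 48.5% of all tested genes were. In PKP2_het replicate 3, TJP1 was at its lowest of the 8 libraries, at 14.9 FPKM. The endothelial markers there summed to 455 FPKM, while the remaining PKP2_het sums lay between 221 and 339 FPKM. The part of endothelial cells in the TJP1 values was not tested.

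CXADR encodes the coxsackievirus and adenovirus receptor, an adhesion protein of the disc that binds ZO-1. It was at 4.99, 4.48, 1.45 and 5.21 FPKM in PKP2_het replicates 1 to 4, and at 3.49, 5.62, 6.04 and 4.57 FPKM in WT replicates 1 to 4. PKP2_het replicate 3 was far below the rest, and WT replicate 1 was the next lowest. For CXADR the log2 fold change was -0.31 (95% interval -0.95 to 0.34; limma adjusted p = 0.691), and 0.010 without PKP2_het replicate 3 (limma adjusted p = 0.977).

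**Figure D2:**
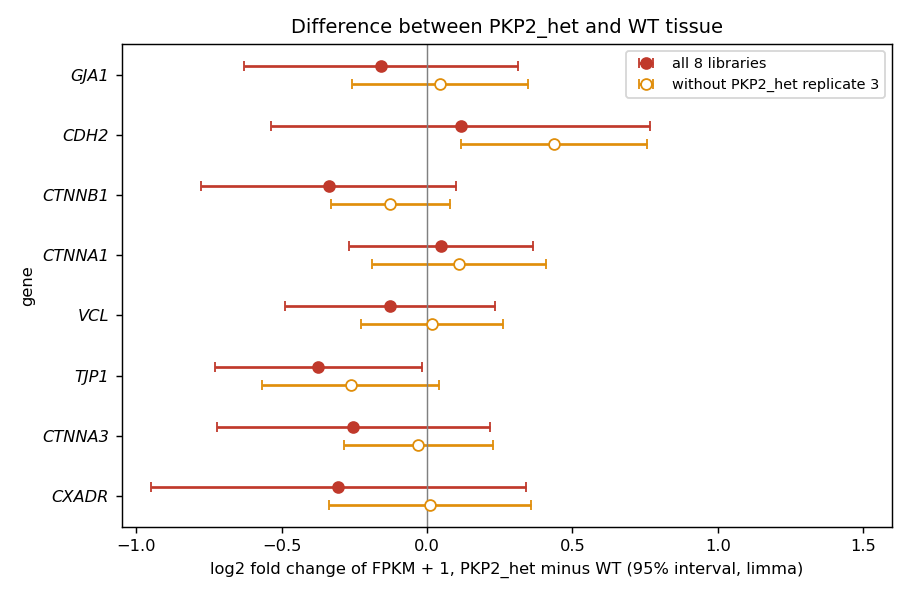
Log2 fold change of FPKM + 1, PKP2_het minus WT, for the 8 tested genes with 95% limma intervals, with all 8 libraries (filled) and without PKP2_het replicate 3 (open). With all libraries the interval of TJP1, -0.73 to -0.018, is the one that excludes 0, and without that library it is the interval of CDH2, 0.12 to 0.76; neither passes adjustment over all genes.

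PKP2_het replicate 3 held the lowest levels of most members. It was the lowest of all 8 libraries for 7 of the 9 members, as it was for 36.3% of all tested genes. It was the lowest PKP2_het library for 8 of the 9, a count for which the share over all tested genes was not taken. Relative to the mean of the other 3 PKP2_het libraries its level was 29.7% for CXADR, 40.3% for CDH2, 45.4% for CTNNA3, 54.9% for CTNNB1, 56.2% for GJA1, 65.7% for VCL, 71.7% for TJP1 and 84.2% for CTNNA1. The coefficient of variation was larger in PKP2_het than in WT for 8 of the 9 members, CTNNA1 being the exception, at 10.9% in PKP2_het and 15.7% in WT. The share of all tested genes with a larger variation in PKP2_het was not taken, so this count is not a trait of the members. PKP2_het replicate 3 was the highest of the 8 libraries for another 23.5% of all tested genes. The 9 members summed to 455, 432, 252 and 424 FPKM in PKP2_het replicates 1 to 4 and to 406, 405, 433 and 406 FPKM in WT replicates 1 to 4. The summed cardiomyocyte markers were at their highest in that same library, at 34744 FPKM. Single markers went opposite ways: across the 8 libraries MYH7 was at its lowest in PKP2_het replicate 3, at 1965 FPKM, and TNNT2 at its highest, at 7536 FPKM. These are examples, and the levels of the other markers in that library are not given. Between the groups, the log2 fold change was positive for 6 of the 10 cardiomyocyte markers and negative for 4, with or without that library. The part of these markers in the members' values was not tested. Longer genes were lower in PKP2_het replicate 3, by 0.12 log2 units per doubling of gene length, while the slopes of the other 7 libraries lay between -0.050 and 0.048. Member lengths were 3080 to 17282 bases. With each library's length trend removed, the log2 fold change of CTNNA3, the longest member, was -0.12, against -0.25 with the trend left in (limma adjusted p = 0.756 and 0.656). That of VCL was then -0.085, that of TJP1 -0.30 and that of CTNNB1 -0.31 (limma adjusted p = 0.827, 0.397 and 0.518). GJA1 stayed at -0.16, and CXADR was at -0.28 against -0.31 with the trend left in. CDH2 was at 0.15 against 0.12, and CTNNA1 at 0.060 against 0.049. The part of gene length in the members' levels was not tested.

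**Figure D3:**
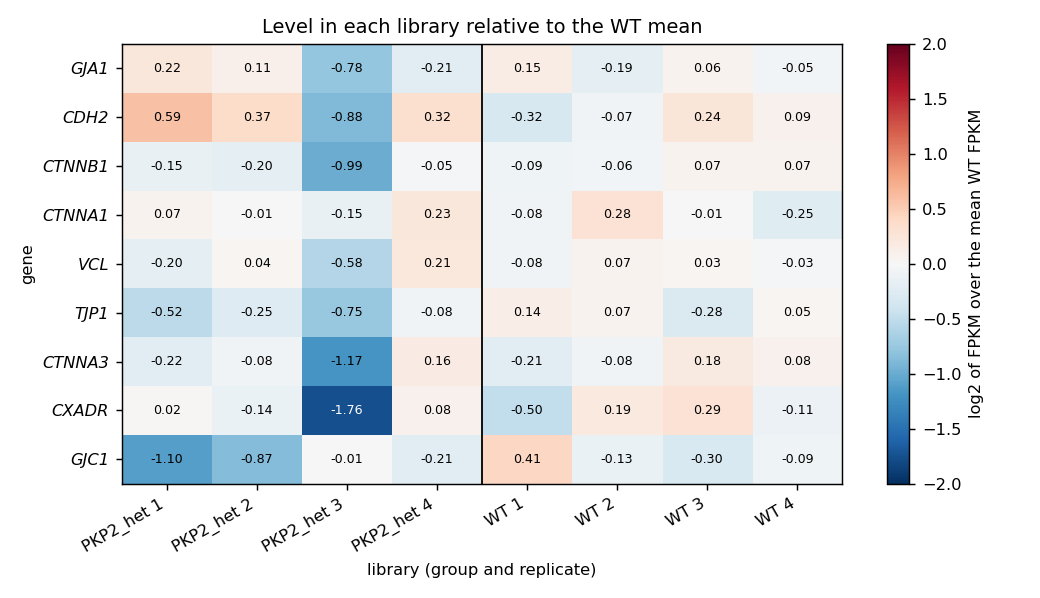
Level of each junction gene in each library as log2 of its FPKM over the mean WT FPKM of that gene (red above, blue below the WT mean), PKP2_het libraries left of the line. The PKP2_het replicate 3 column runs from -1.76 for CXADR to -0.0087 for GJC1, while CDH2 is above the WT mean in the other 3 PKP2_het libraries, at 0.59, 0.37 and 0.32.

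Levels of 2 genes taken as a ratio within a library do not depend on how libraries were scaled, and 4 such ratios were compared. The ratios were chosen with earlier results of these data known, which their p-values do not take into account. CTNNB1 was at 54.1%, 60.6%, 83.2% and 69.8% of the CDH2 level in PKP2_het replicates 1 to 4, and at 105.5%, 90.3%, 80.4% and 88.8% in WT replicates 1 to 4. PKP2_het replicates 1, 2 and 4 were below every WT library, and PKP2_het replicate 3 lay within the WT range. As a log2 ratio this was -0.60 ± 0.27 in PKP2_het and -0.14 ± 0.16 in WT (SD, n = 4 each), a difference of -0.46 with an exact permutation p of 0.0571, or 0.229 after Benjamini-Hochberg adjustment over the 4 ratios. The difference was -0.57 when PKP2_het replicate 3 was left out, where p = 0.0571 is the smallest the two-sided exact permutation test can give and the adjusted p was again 0.229.

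In this design a single ratio at the smallest possible p of 0.0286 would not pass the adjustment over 4 ratios (two-sided exact permutation test), so the other 3 are given by their values. CTNNA3 over CTNNA1 was at 5.10% to 9.93% in PKP2_het and 8.09% to 13.03% in WT, a difference of -0.37 on the log2 scale (exact permutation p = 0.286, adjusted 0.457), or -0.15 without PKP2_het replicate 3. TJP1 over GJA1 was at 10.4% to 19.1% in PKP2_het and 13.7% to 20.7% in WT, a difference of -0.23 (exact permutation p = 0.400, adjusted 0.457), or -0.32 without PKP2_het replicate 3. GJC1 over GJA1 was at 0.286%, 0.362%, 1.22% and 0.710% in PKP2_het replicates 1 to 4 and at 0.554% to 0.853% in WT, a difference of -0.36 (exact permutation p = 0.457, adjusted 0.457). PKP2_het replicates 1 and 2 were below the WT range of that ratio and PKP2_het replicate 3 above it; the difference was -0.75 without that library (exact permutation test, adjusted p = 0.343 over the 4 ratios).

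**Figure D4:**
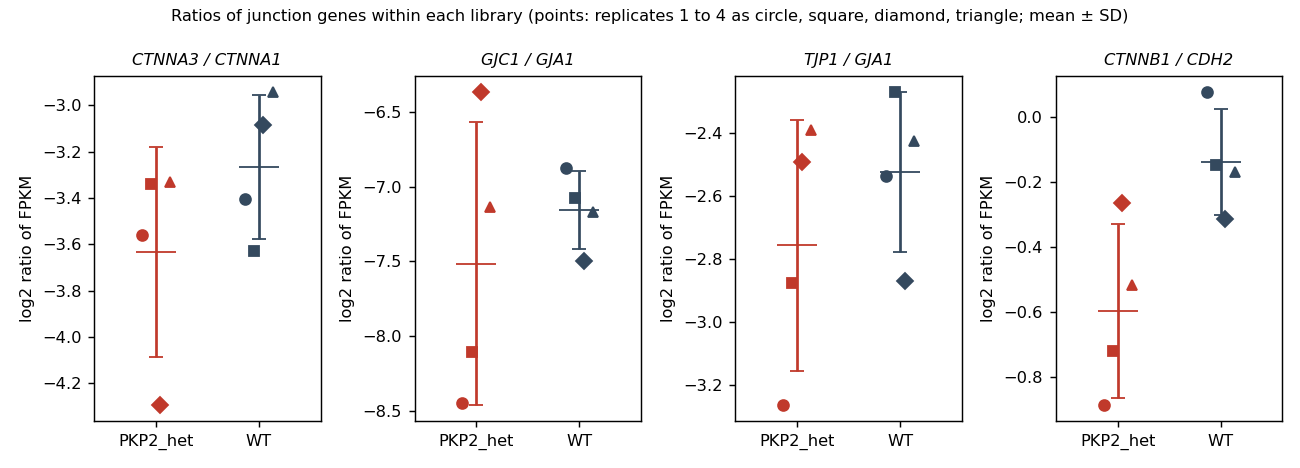
Log2 ratio of FPKM of 4 pairs of junction genes within each library, PKP2_het (red) left of WT (dark blue), with the group mean and SD (n = 4). For CTNNB1 over CDH2 the means are -0.60 in PKP2_het and -0.14 in WT, with PKP2_het replicate 3 (diamond) at -0.27; the groups overlap in all 4 panels.

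As a share of the summed FPKM of the 9 genes, GJA1 made up 29.4% to 36.9% in PKP2_het and 31.3% to 39.4% in WT. CDH2 took 23.6%, 21.4%, 15.4% and 21.0% in PKP2_het replicates 1 to 4, against 14.1% to 19.4% in WT. CTNNB1 was the 1 gene whose shares did not overlap, at 12.7% to 14.7% in PKP2_het and 14.9% to 16.6% in WT; it was singled out after the shares had been seen, and the gap between the groups was small beside their ranges. Shares add up to the whole, so a higher share of CDH2 lowers those of the other genes.

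**Figure D5:**
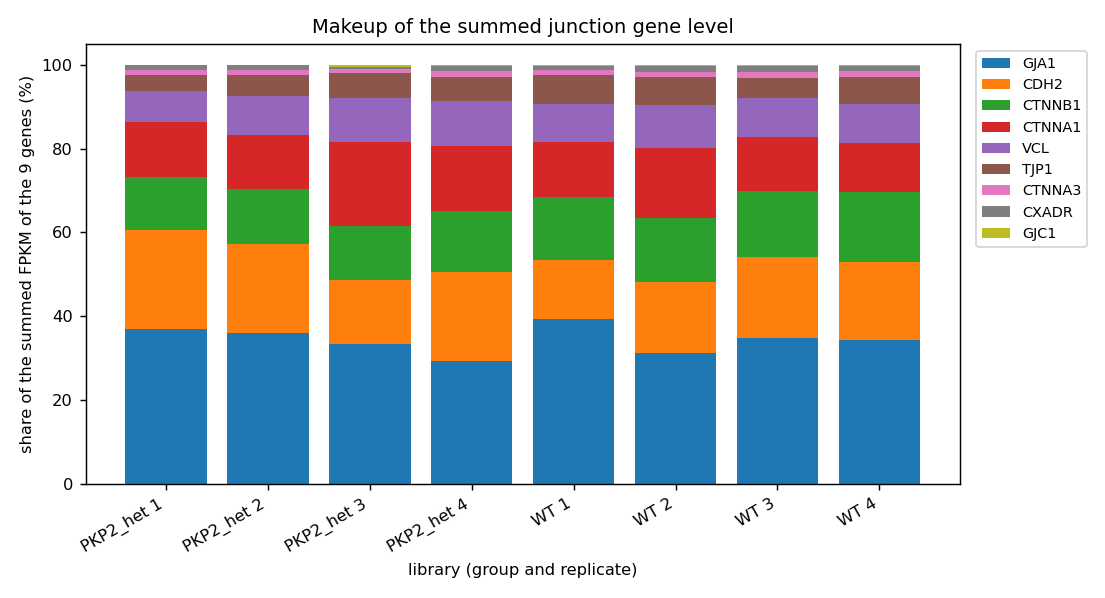
Share of each gene (%) in the summed FPKM of the 9 junction genes, by library, PKP2_het libraries left of WT. GJA1, at the base, holds 29.4% to 39.4% in all 8 libraries, and CDH2, next to it, holds over 21% in PKP2_het replicates 1, 2 and 4.

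Among the desmosomal genes, PKP2, JUP (plakoglobin), DSP (desmoplakin), DSG2 (desmoglein 2) and DSC2 (desmocollin 2) also gave 0 calls of 5. Calls over all tested genes were 1.15% higher and 0.707% lower. The desmosomal log2 fold changes were negative for 4 of 5 with a median of -0.13. They were positive for 4 of 5 with a median of 0.16 when PKP2_het replicate 3 was left out. Over all tested genes 54.3% were negative, or 48.5% without that library. Both counts include PKP2, the targeted gene, at -0.69, or -0.48 without that library. JUP, DSP, DSG2 and DSC2 were then all positive. DSC2, a cadherin of the desmosome, was at 22.9, 21.7, 8.44 and 23.2 FPKM in PKP2_het replicates 1 to 4 and at 13.8, 15.7, 18.3 and 16.2 FPKM in WT replicates 1 to 4. As for CDH2, 3 PKP2_het libraries were above every WT library and PKP2_het replicate 3 was below all of them. The pattern was not limited to these cadherins. ACTN2, in the list of other adherens junction genes below, had it too. It was at 560, 568, 319 and 664 FPKM in PKP2_het replicates 1 to 4 and at 371 to 530 FPKM in WT. DSC2 passed the test when PKP2_het replicate 3 was left out, where 1.81% of all tested genes were called higher. Its log2 fold change was then 0.48 (limma adjusted p = 0.0475), whereas with all 8 libraries it was 0.15 (limma adjusted p = 0.846). By the root mean square difference of log2(FPKM + 1), each gene centred on its mean over the 8 libraries, DSC2 was the third nearest of all tested genes with a symbol outside the set, at 0.089. The nearest were PIP5K1B, a phosphatidylinositol phosphate kinase, at 0.062, and TXLNB, a taxilin of muscle, at 0.083. PIP5K1B and TXLNB also had 3 PKP2_het libraries above every WT library and PKP2_het replicate 3 below all of them. DSC2 (gene 100623651) lies on the same chromosome as CDH2 in Sscrofa11.1, 2.35 megabases beyond the higher coordinate of CDH2. That is the upstream side of CDH2, which is on the minus strand.

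The same measure was taken for the gap junction gene and its scaffold. Nearest to GJA1 were SELENOP, a secreted selenoprotein, at 0.077, CYB5B, a cytochrome b5 of the outer mitochondrial membrane, at 0.081, and CDKN2C, a cell cycle inhibitor, at 0.089. Nearest to TJP1 were RAPGEF1, a guanine nucleotide exchange factor, at 0.078, ALAS1, the first enzyme of haem synthesis, at 0.082, and STAT3, a transcription factor of cytokine signalling, at 0.093. These are likenesses over 8 libraries and include PKP2_het replicate 3, where each of these 6 genes was at its lowest. None of the 6 was called by limma (adjusted p of 0.260 to 0.940).

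In the wider list of 24 other adherens junction genes, 0 of 20 tested were called. Calls over all tested genes were 1.15% higher and 0.707% lower. Log2 fold changes of the list were negative for 14 of 20, where 54.3% of all tested genes were negative, the median being -0.15. Leaving out PKP2_het replicate 3 gave 10 negative and 10 positive, where 48.5% of all genes were negative, and a median of -0.012. CDH13, which encodes T-cadherin, a cadherin without a cytoplasmic tail, was at 114.6, 120.1, 33.8 and 115.6 FPKM in PKP2_het replicates 1 to 4 and at 146, 184, 194 and 149.9 FPKM in WT replicates 1 to 4. Every PKP2_het library was below every WT library, as held for 4.33% of all tested genes. Its log2 fold change was -0.95 ± 0.37 (SE; limma adjusted p = 0.306), and -0.51 without PKP2_het replicate 3 (limma adjusted p = 0.0714). TLN1, encoding talin 1, an actin linker of integrin adhesions, was at 24.1 ± 3.37 FPKM in PKP2_het against 28.4 ± 0.252 FPKM in WT (SD, n = 4 each; limma adjusted p = 0.445). LPP, a LIM protein of adhesion sites, had a log2 fold change of -0.39 (limma adjusted p = 0.423), and of -0.20 without PKP2_het replicate 3 (limma adjusted p = 0.420).

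Of 10 other connexin and pannexin genes, 2 were tested and 0 called, where 1.15% of all tested genes were called higher and 0.707% lower. The other 8 reached at most 0.300 FPKM in any library. GJA5 and GJA4 encode connexin 40 and connexin 37, which are known from blood vessel endothelium, and connexin 40 also from the atria and the conduction system. GJA5 was at 4.43, 6.06, 7.92 and 6.95 FPKM in PKP2_het replicates 1 to 4 and at 14.8, 9.37, 8.78 and 6.17 FPKM in WT replicates 1 to 4, so the groups overlapped. The log2 fold change was -0.52 for GJA5 and -0.22 for GJA4 (limma adjusted p = 0.403 and 0.709). The atrial markers, MYL7 among them, summed to 8.93 to 652 FPKM in PKP2_het and 6.42 to 1165 FPKM in WT, and the endothelial sums are given above; their part in these values was not tested. Of 17 other tight junction genes, 0 of 11 tested were called, where 1.15% of all tested genes were called higher and 0.707% lower. The log2 fold change was negative for 9 of the 11, as it was for 54.3% of all tested genes. Without PKP2_het replicate 3 it was negative for 7 of the 11, against 48.5% of all tested genes. The smallest p-values were those of CLDN5 (claudin 5, itself 1 of the 9 endothelial markers) at a log2 fold change of -0.55, JAM3 at -0.16 and F11R at -0.29, the last pair encoding junctional adhesion molecules; their limma adjusted p-values were 0.407, 0.545 and 0.545.

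Genes of connexin transport and modification gave 0 calls of 13, where 1.15% of all tested genes were called higher and 0.707% lower. Of the 13, 12 had a negative log2 fold change, as did 54.3% of all tested genes. An unadjusted limma p under 0.05 was found for 3, as for 12.8% of all tested genes. Leaving out PKP2_het replicate 3 left 11 of 13 negative, against 48.5% of all tested genes. CAV1, the caveolar coat protein caveolin 1, was at 91.6 ± 17.1 FPKM in PKP2_het against 128 ± 21.99 FPKM in WT (SD, n = 4 each; log2 fold change -0.48, limma adjusted p = 0.260). Among PKP2_het libraries CAV1 was highest in replicate 3, at 113 FPKM, as was the sum of the endothelial markers, at 455 FPKM. The part of endothelial cells in the CAV1 values was not tested. DBN1, the actin-binding protein drebrin, was at 71.1% of WT in PKP2_het (log2 fold change -0.37, limma adjusted p = 0.302). DCTN1, a dynactin subunit for microtubule transport, was at 83.9% of WT in PKP2_het (log2 fold change -0.24, limma adjusted p = 0.359). For DCTN1 every PKP2_het library, at 9.76 to 11.8 FPKM, was below every WT library, at 12.8 to 14.3 FPKM, as held for 4.33% of all tested genes.

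Among regulators of beta-catenin 1 of 14 tested was called, toward higher levels in PKP2_het, where 1.15% of all tested genes were called higher. DVL2 encodes dishevelled 2, which relays the Wnt receptor signal that spares beta-catenin from destruction. It was at 12.3, 14.3, 19.0 and 11.8 FPKM in PKP2_het replicates 1 to 4, and at 7.71, 6.80, 7.63 and 7.08 FPKM in WT replicates 1 to 4. Every PKP2_het library was above every WT library, as held for 4.86% of all tested genes. DVL2 rose 1.96-fold (log2 fold change 0.86 ± 0.15 SE, limma adjusted p = 0.0162). On the log2 scale the difference was 0.73 without PKP2_het replicate 3 (limma adjusted p = 0.00472), whereas the call was lost at a similar difference of 0.86 without PKP2_het replicate 2, 0.83 without WT replicate 2 and 0.85 without WT replicate 4 (limma adjusted p = 0.0557, 0.0665 and 0.0650). With libraries rescaled to equal sums it was lost at 0.62 (limma adjusted p = 0.715). DVL2 overlaps ACADVL, a fatty acid oxidation gene on the opposite strand at 106 ± 17.6 FPKM in PKP2_het against 124 ± 16.2 FPKM in WT (SD, n = 4 each; limma adjusted p = 0.584), so fragments of the 2 genes may be mixed if strand was not used. Of the 14 regulators 12 had a negative log2 fold change, as did 54.3% of all tested genes. APC and CSNK1A1, both of the complex that degrades beta-catenin, were among the 12, at -0.27 and -0.22 (limma adjusted p = 0.4435 and 0.610). When PKP2_het replicate 3 was left out, 10 of the 14 were negative, against 48.5% of all tested genes. APC was then at -0.16 and CSNK1A1 at -0.055 (limma adjusted p = 0.481 and 0.771). Of 10 targets of beta-catenin signalling, 2 were tested and 0 called, where 1.15% of all tested genes were called higher and 0.707% lower. The log2 fold change was 0.30 for MYC and -0.13 for CCND1, cyclin D1 (limma adjusted p = 0.653 and 0.779).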

How the data were processed

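Right ventricular RNA of 4 PKP2_het and 4 WT libraries was analysed; the titles give groups and replicate numbers. Total RNA (RNeasy Mini kit) was sequenced as paired reads on a NovaSeq instrument, per the labels' protocols; HISAT2 2.0.5 did the alignment, per the submitters' processing notes. The sources used here do not name the counting program, annotation or strand setting. The authors deposited FPKM values for 30550 genes. FPKM times gene length gave whole multiples of 1 step for 100% of values (within 0.01 fragments), which gave fragments per gene; the library factors in the deposited FPKM equal median-of-ratios factors, so a level is set against the median gene.

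The 10757 genes that reached 1 FPKM in 4 or more libraries were fitted on log2(FPKM + 1) by limma-trend (limma 3.58.1, R 4.3.3), with Benjamini-Hochberg adjustment; the pseudocount of 1 understates changes of low genes. Single values were compared with two-sided exact permutation tests (scipy 1.17.1). Genes, lists and tests were chosen with earlier results of these data known. Of 164 list genes, 163 matched by symbol and 1 (CSNK1E) by the protein annotation. Named genes are the members, the desmosomal genes, every called gene and the 3 smallest p-values of each other list, and the 3 nearest genes of CDH2, GJA1 and TJP1; others were named after their values were seen. On simulated fragments (10789 genes tested, 4 PKP2_het against 4 WT), the fit recovered 80.0% of 2-fold changes. The simulation gave every gene a dispersion of 0.05 and held no stray library. The real PKP2_het libraries varied more for some members, with a coefficient of variation of 36.4% for CDH2 and 43.3% for CXADR. The recovered share is thus a check of the code and not the power for the members. Dixon's test for a stray library, at the 95% level, was met by 0 of 28 groups of 4 values.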

Additional observations from a re-analysis of the deposited data

How the results depend on the processing

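Under 21 alternatives to the limma fit (pseudocounts of 0.1 and 0.5, no filter or a filter at 5 FPKM, rescaled sums, quantile normalisation, library weights, robust variances, removal of the length trend, voom on recovered fragments, a replicate block, each library left out, and, added after seeing the data, PKP2_het replicates 3 and 4 left out together), 0 members were called; the lowest adjusted p of any member was 0.161, for CDH2 without PKP2_het replicate 3. TJP1, CTNNB1 and CTNNA3 stayed negative in every one of these. With libraries rescaled to equal sums, which moved the median of all genes by -0.21, the log2 fold change was -0.15 for CDH2 and -0.22 for CTNNA1, or 0.082 and 0.014 relative to that median; with mitochondrially encoded genes left out of the sums CTNNA1 was at -0.026. Library weights gave 0.067 for GJA1, 0.015 for VCL and -0.57 for PKP2, which was then called (adjusted p = 0.0203). GJA1 was at 0.17 without PKP2_het replicates 3 and 4. Leaving out 1 library gave -0.045 to 0.44 for CDH2, -0.029 to 0.15 for CTNNA1, -0.29 to 0.044 for GJA1, -0.24 to 0.017 for VCL and -0.44 to 0.010 for CXADR. The 4 ratios kept their direction in all of their 12 alternatives; their exact permutation tests cannot pass with 1 library left out or with the replicate block, and with all 8 libraries 1 ratio alone cannot pass either. CXADR had no value under the 5 FPKM filter, and GJC1 had one, negative, only with no filter and with rescaled sums. The DVL2 call was lost in 5 of 21, at adjusted p = 0.715 with rescaled sums and 0.0557 to 0.0665 in the others. Same-numbered libraries had correlations of -0.39, 0.033, -0.23 and 0.20 between their deviations from the group means, and 2 of 8 libraries correlated best with their own number. These values gave no sign that the numbers pair the samples, but so few libraries cannot exclude it, and the labels do not say. With a replicate block the log2 fold change of TJP1 was -0.37 (limma adjusted p = 0.361), and the DVL2 adjusted p was 0.0605. With 4 libraries a group, differences as large as a member's 95% interval allows (-0.95 to 0.34 for CXADR, the member with 154 to 867 fragments per library) may go undetected.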
